A study of Chlamydomonas reinhardtii with 9 samples.

Results

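The genes described here are the nuclear genes of the green alga Chlamydomonas reinhardtii whose listed exons cover more than 20 separate stretches of the genome. They were chosen from the gene models in the deposited tables: overlapping exon intervals of a gene were merged into exon blocks, genes of the plastid and mitochondrial genomes were set aside, and genes with 21 or more blocks were kept. No expression value entered this choice. It gave 1022 genes out of 14540 nuclear genes (7.03%), and the tables list 14621 genes in all. RNA was measured in 3 libraries of the mutant crpaf1-1, 3 of the mutant crskip-1 and 3 of wild type. All were made from strain CC5325, a laboratory strain of this unicellular alga, grown in TAP (a liquid medium that contains acetate) with 14 h of light and 10 h of darkness per day at 22 °C for 2 generations and collected late in G1, the growth phase before DNA is copied. The labels do not say how the mutations were made or whether each mutant was 1 isolate, and replicates are not said to come from separate cultures; p-values reflect spread among libraries that may be technical in origin.

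Introns are removed from a nuclear transcript by the spliceosome, which acts at each intron anew and largely while RNA polymerase II is still copying the gene. The PAF1 complex, whose name crpaf1-1 carries, travels with elongating RNA polymerase II and is known for its part in elongation, histone modification along transcribed genes and 3′ end formation. SKIP, whose name crskip-1 carries, is known in plants, yeast and animals as a spliceosome component that also acts as a cofactor of transcription, and in plants it has been linked to the PAF1 complex. The genes of Chlamydomonas are rich in introns compared with those of many unicellular organisms. The comparisons below ask how the RNA of the genes with the most exon blocks differed between each mutant and wild type, and between the mutants.

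Total counts were between 16876166 and 19725439 per library in crpaf1-1, between 13907142 and 16122105 in crskip-1, and between 14006299 and 16812251 in wild type. Per the file headers, lane 3 held replicate 1 of every group and lane 2 held all other libraries, so lanes were balanced over groups. The labels' molecule field names genomic DNA, while the protocol describes oligo(dT)-selected RNA, and the protocol was followed. The mutated genes could not be looked up, because the tables pair no ID with a gene name, so their levels could not serve as a check of the labels. In RNA from whole cultures, less RNA of a gene in each cell and a change in the mix of cells along the cell cycle cannot be told apart.

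The genes with over 20 blocks were long, and their exon blocks were short. The median gene had 26 blocks, and the range ran from 21 to 199 blocks. Of the 1022 genes, 498 had 21 to 25 blocks, 99 had 41 or more and 4 had 100 or more. Their summed exon length had a median of 6251 bases inside a median span of 13407 bases on the chromosome. The median block of a gene measured 135 bases at the midpoint of all these genes, shorter than the 150-base reads used for sequencing, and in the typical gene 56.5% of blocks were under 150 bases. Introns, taken here as the gaps between blocks, filled 51.1% of the span of the typical gene, and the median intron was 231 bases. The genes were spread over all 17 chromosomes. Their share of the nuclear genes of a chromosome was lowest on chromosome 12, with 4.32%, and highest on chromosome 4, with 10.98%. On the opposite strand, 353 of the 1022 overlapped another gene, and no source used here states whether counting took strand into account, so values of those genes are uncertain.

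Of the 1022 genes, 990 passed the filter on low counts, as did 13376 genes in all, and 32 did not. The highest count that any of those 32 reached in a library was 19, and 1 of them had no count at all. Measured in CPM (the count of a gene scaled to a fixed library total), scaled between libraries, the 990 genes had a median level of 25.8 CPM, against 18.6 CPM for all nuclear genes tested. Per kb of exon the order was the other way round, with a median of 3.59 CPM per kb against 5.92 CPM per kb. As a share of all counts in a library they held 4.90%, 5.02% and 5.13% in crpaf1-1, 4.46%, 4.50% and 4.53% in crskip-1, and 4.96%, 5.03% and 5.25% in wild type. The crskip-1 libraries lay below all others in this share, and the crpaf1-1 and wild-type libraries overlapped. The share is taken of raw totals, so it also depends on how the other genes fill a library. When only library size was scaled for, the typical gene among all those tested was itself lower in crskip-1 than in wild type (median -0.12, log2 scale). How far this bears on the low share in crskip-1 was not tested.

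To compare genes that differ in block number but not in exon length or level, each gene with over 20 blocks was given a comparison gene. This was 1 nuclear gene with 6 to 20 blocks of closely similar exon length and mean expression. Such a gene was found for 961 of the 990. The 29 left without one had exon lengths between 10166 and 72804 bases. Median exon length was 6160 bases in the 961 genes and 6159 bases in their comparison genes, and median level was 24.9 CPM in the 961 genes and 25.9 CPM in the comparison genes. The 961 genes had a median of 26 blocks, a median block of 134 bases and 51.5% of the span in introns, and the comparison genes had 12 blocks, 211 bases and 28.9%. Median span was 13383 bases in the 961 genes and 9151 bases in the comparison genes, so span was not held equal. The median intron measured 235 bases in the genes with over 20 blocks and 210 bases in the comparison genes, so intron length was not fully balanced between the sets.

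The RNA of many genes with over 20 blocks was at a lower level in crpaf1-1 than in wild type. By edgeR's quasi-likelihood test with Benjamini-Hochberg adjustment over all genes tested, at an adjusted p under 0.05, 652 of the 990 genes changed (65.9%), against a background of 58.4% of all 13376 genes. Among them 416 fell (42.0% of the 990), where the background is 29.8%, and 236 rose (23.8%), where the background is 28.6%. Changes of 2-fold or more were mostly decreases: 116 genes fell by 2-fold or more (11.7%, background 6.30%) and 6 rose by as much (0.606%, background 2.50%). The libraries of the 2 groups did not overlap for 686 of the 990 genes, a share of 69.3% against a background of 64.1%. The median log2 fold change of crpaf1-1 over wild type was -0.10 over the 990 genes and 0.01 over all genes tested. When libraries were scaled only by their size, all genes had a median of 0.09 and the 990 genes had one of -0.02, and the share of rises among the genes that changed was 46.5% in place of 36.2%. The distance of the 990 genes from all genes was -0.11 with either scaling.

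Against genes of like exon length and level the distance was smaller. The 961 genes with a comparison gene had a median log2 fold change of -0.10, and the comparison genes had -0.02, a difference of -0.07. With comparison genes chosen on span in place of exon length the difference was -0.14. Such a gene was found for only 685 genes, so the 2 differences are not over the same genes. Of the comparison genes 35.4% fell and 8.12% fell by 2-fold or more. The 116 genes that fell by 2-fold or more had a median intron of 187 bases, a median exon length of 8112 bases and a median level of 14.6 CPM, against 242 bases, 6114 bases and 27.0 CPM in the others of the 990; these medians describe genes picked by their fold change and were not tested. The curves of the fold changes lay apart mainly on the side of decreases, and they met on the side of increases.

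**Figure D1:**
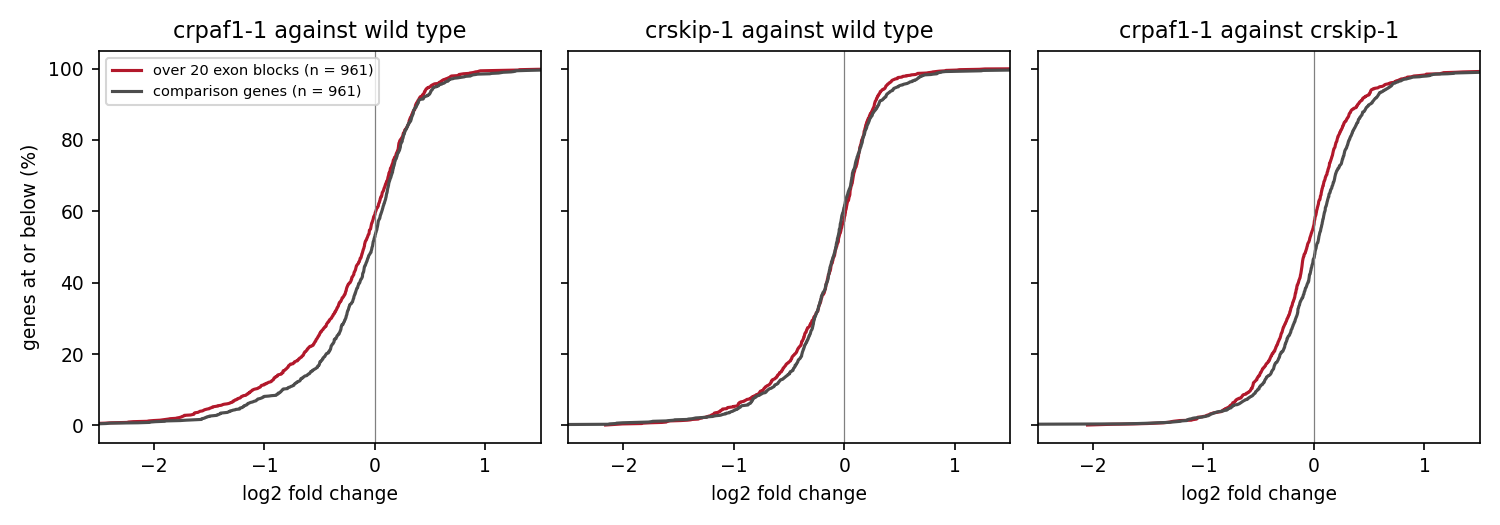
Cumulative share (%, vertical axis) of genes at or below each log2 fold change (horizontal axis) in 3 comparisons, for 961 genes with over 20 exon blocks (red) and their 961 comparison genes with 6 to 20 blocks (grey). In crpaf1-1 against wild type and against crskip-1 the red curve runs left of the grey one at the midpoint (differences of medians -0.07 and -0.08), while in crskip-1 against wild type the curves lie together there (difference 0.00).

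The strongest fall in crpaf1-1 was that of Cre01.g037550_4532.v6.1, a gene of 32 blocks on the minus strand of chromosome 1 (5323569 to 5340367). Its level was 0.750, 1.01 and 1.00 CPM in the crpaf1-1 libraries, 2.23, 1.81 and 1.65 CPM in the crskip-1 libraries, and 5.84, 5.21 and 8.23 CPM in wild type. The 3 groups did not overlap, with crpaf1-1 lowest and wild type highest. Relative to wild type the log2 fold change was -2.81 in crpaf1-1 (SE 0.22, adjusted p 7.8e-09, edgeR), which is 7.03-fold lower. Next came Cre17.g728300_4532.v6.1, with 29 blocks in 3592 bases of exon on the minus strand of chromosome 17 (3991491 to 4002827). It had 0.703, 1.01 and 1.39 CPM in the crpaf1-1 libraries, 1.42, 2.21 and 1.10 CPM in the crskip-1 libraries, and 6.18, 6.36 and 6.77 CPM in wild type. Both mutants lay below every wild-type library and overlapped each other. Its log2 fold change over wild type was -2.65 in crpaf1-1 (SE 0.22, adjusted p 1.6e-08, edgeR). The 4 genes that followed fell by 2.65 to 2.44 on the log2 scale, and none of the 6 overlaps a gene on the opposite strand.

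Rises of this size were few. Cre09.g399663_4532.v6.1, with 49 blocks on the minus strand of chromosome 9 (4160761 to 4182040), had 5.44, 4.93 and 6.55 CPM in the crpaf1-1 libraries, 1.22, 1.60 and 1.88 CPM in the crskip-1 libraries, and 0.809, 0.579 and 1.04 CPM in wild type. Every crpaf1-1 library lay above every other library, at a log2 fold change over wild type of 2.77 (SE 0.22, adjusted p 1e-08, edgeR), or 6.82-fold. It overlaps 1 gene on the opposite strand, so the source of its reads is uncertain. Cre05.g242750_4532.v6.1, with 23 blocks on the plus strand of chromosome 5 (186693 to 197754), had 1.13, 1.54 and 1.67 CPM in the crpaf1-1 libraries, 0.338, 1.00 and 0.549 CPM in the crskip-1 libraries, and 0.578, 0.362 and 0.244 CPM in wild type. The crpaf1-1 libraries lay above the rest, and those of crskip-1 and wild type overlapped. Relative to wild type this is a log2 fold change of 1.82 in crpaf1-1 (SE 0.38, adjusted p 0.00059, edgeR), resting on 24 to 30 reads per library in crpaf1-1 and 4 to 10 in wild type. The next 4 genes rose by 1.47 to 1.13 on the log2 scale, and 3 of the 6 overlap a gene on the opposite strand.

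In crskip-1 the genes with over 20 blocks also fell more often than they rose relative to wild type, at shares close to those of genes of like exon length and level. This comparison uses the same 3 wild-type libraries as the one above. By the same edgeR test 495 of the 990 genes changed (background 49.5%), of which 333 fell (33.6%, background 25.1%) and 162 rose (16.4%, background 24.4%). By 2-fold or more, 53 fell (5.35%, background 5.06%) and 5 rose (0.505%, background 1.82%). For 554 genes the crskip-1 and wild-type libraries did not overlap, a share of 56.0% against a background of 56.4%. The median log2 fold change of crskip-1 over wild type was -0.08, against 0.00 for all genes tested, and it was -0.12 over genes with 31 or more blocks. Scaled only by library size, all genes had a median of -0.12, the median of the 990 genes was -0.20, and the share of rises among the genes that changed was 12.0% in place of 32.7%. Of the comparison genes, 33.7% fell and 4.06% fell by 2-fold or more, and their median of -0.08 differed by 0.00 from that of the 961 genes (-0.07). That difference changed sign with the way comparison genes were chosen. With each library left out in turn it ran only from -1.2e-05 to 0.024. In all, it ran between -0.05 when comparison genes were chosen on span, which left 685 genes, and 0.02 without crskip-1 replicate 3.

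The strongest fall in crskip-1 was in Cre12.g513400_4532.v6.1, which has 31 blocks on the minus strand of chromosome 12 (3638092 to 3656124). It had 1.69, 1.47 and 1.96 CPM in the crskip-1 libraries and 3.61, 3.07 and 3.55 CPM in the crpaf1-1 libraries, against 10.7, 4.27 and 7.50 CPM in wild type. The groups did not overlap, and the wild-type libraries were the most spread. The log2 fold change over wild type was -2.16 in crskip-1 (SE 0.28, adjusted p 5e-06, edgeR). Cre06.g261400_4532.v6.1, with 32 blocks on the minus strand of chromosome 6 (1588273 to 1601643), had 2.36, 2.47 and 2.04 CPM in the crskip-1 libraries and 1.41, 1.54 and 1.72 CPM in the crpaf1-1 libraries, against 8.38, 10.8 and 10.1 CPM in wild type. Its log2 fold change over wild type was -2.07 in crskip-1 (SE 0.15, adjusted p 8.3e-09, edgeR) and -2.65 in crpaf1-1 (SE 0.15, adjusted p 1.8e-10, edgeR). No library of either mutant reached a wild-type library. The 4 genes after these fell by 2.01 to 1.76 on the log2 scale in crskip-1.

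Among the rises in crskip-1, Cre09.g399912_4532.v6.1, with 39 blocks on the minus strand of chromosome 9 (1454395 to 1471518), had 7.77, 8.09 and 8.23 CPM in the crskip-1 libraries and 3.05, 3.497 and 3.67 CPM in the crpaf1-1 libraries, against 2.20, 2.10 and 1.71 CPM in wild type. The groups did not overlap, with crskip-1 highest and wild type lowest. In crskip-1 the log2 fold change over wild type was 2.00 (SE 0.15, adjusted p 9.3e-09, edgeR). Cre01.g004157_4532.v6.1, a longer gene of 46 blocks and 11089 bases of exon on the plus strand of chromosome 1 (758329 to 777878), had 62.5, 67.2 and 68.3 CPM in the crskip-1 libraries and 22.5, 23.1 and 24.1 CPM in the crpaf1-1 libraries, against 27.0, 25.7 and 29.1 CPM in wild type. Every crpaf1-1 library lay below every wild-type library. Relative to wild type its log2 fold change was 1.27 in crskip-1 (SE 0.07, adjusted p 1.4e-10, edgeR) and -0.24 in crpaf1-1 (SE 0.07, adjusted p 0.0081, edgeR). Each of these genes overlaps 1 gene on the opposite strand and is uncertain for that reason. The next 4 genes rose by 1.22 to 0.92 on the log2 scale.

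Set directly against each other, the mutants differed in many of these genes, with more of them lower in crpaf1-1. By the same edgeR test 544 of the 990 genes differed (54.9%, background 53.8%), of which 326 were lower in crpaf1-1 (32.9%, background 28.2%) and 218 were higher (22.0%, background 25.7%). By 2-fold or more, 24 were lower in crpaf1-1 (2.42%, background 2.98%) and 18 were higher (1.82%, background 3.98%). Libraries of crpaf1-1 and crskip-1 did not overlap for 597 genes, a share of 60.3% against a background of 59.3%. The median log2 fold change of crpaf1-1 over crskip-1 was -0.06, and over all genes tested it was -0.00. Scaled by library size alone, the medians were 0.15 for the 990 genes and 0.20 for all genes, and 73.6% in place of 40.1% of the genes that differed were higher in crpaf1-1, so the split turned round while the distance from all genes stayed at -0.06. Of the comparison genes 25.9% were lower in crpaf1-1 and 2.39% were lower by 2-fold or more. Their median was 0.02, and that of the 961 genes was -0.06, a difference of -0.08. This difference was -0.04 with comparison genes of 11 to 20 blocks, and -0.15 when only genes with 31 or more blocks were taken.

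The gene with the highest ratio between the mutants was Cre13.g572750_4532.v6.1, which also has the most blocks per kb of exon among the 990 (27 blocks in 2774 bases, 9.73 per kb, on the minus strand of chromosome 13, 1521718 to 1530402). It was rare in every library, with 25, 24 and 26 reads in crpaf1-1, 6, 0 and 1 reads in crskip-1, and 10, 11 and 14 reads in wild type. The crskip-1 libraries lay lowest and the crpaf1-1 libraries highest. Between crpaf1-1 and crskip-1 the log2 fold change was 2.92 (SE 0.52, adjusted p 0.00013, edgeR), and it was 4.89 without crskip-1 replicate 1, which held 6 of the 7 crskip-1 reads. Cre03.g201850_4532.v6.1, with 22 blocks on the minus strand of chromosome 3 (7994186 to 8002341), had 16.7, 16.4 and 15.4 CPM in the crpaf1-1 libraries against 3.58, 4.15 and 3.53 CPM in crskip-1. Wild type, with 12.0, 12.7 and 10.9 CPM, lay between the mutants and overlapped neither. The log2 fold change of crpaf1-1 over crskip-1 was 2.10 (SE 0.11, adjusted p 1e-10, edgeR).

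At the other end, Cre14.g627500_4532.v6.1, with 23 blocks on the plus strand of chromosome 14 (2962276 to 2976915), had 1.22, 1.11 and 1.00 CPM in the crpaf1-1 libraries against 3.92, 4.81 and 5.25 CPM in crskip-1. Wild type had 2.54, 4.05 and 3.23 CPM and overlapped crskip-1. Between crpaf1-1 and crskip-1 its log2 fold change was -2.05 (SE 0.21, adjusted p 3.6e-07, edgeR), and the gene overlaps 1 gene on the opposite strand. Cre08.g373200_4532.v6.1, with 60 blocks on the minus strand of chromosome 8 (2600482 to 2620350), had 5.53, 5.09 and 5.50 CPM in the crpaf1-1 libraries against 20.2, 22.1 and 18.9 CPM in crskip-1. Wild type, at 11.7, 10.7 and 12.7 CPM, lay between the mutants without overlap. Its log2 fold change was -1.93 between crpaf1-1 and crskip-1 (SE 0.10, adjusted p 9.6e-11), -1.13 in crpaf1-1 over wild type (SE 0.11, adjusted p 8.4e-08) and 0.80 in crskip-1 over wild type (SE 0.09, adjusted p 1.6e-06), all by edgeR. The next 4 genes each way had log2 fold changes of 1.99 to 1.85 and of -1.83 to -1.44 between crpaf1-1 and crskip-1.

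**Figure D2:**
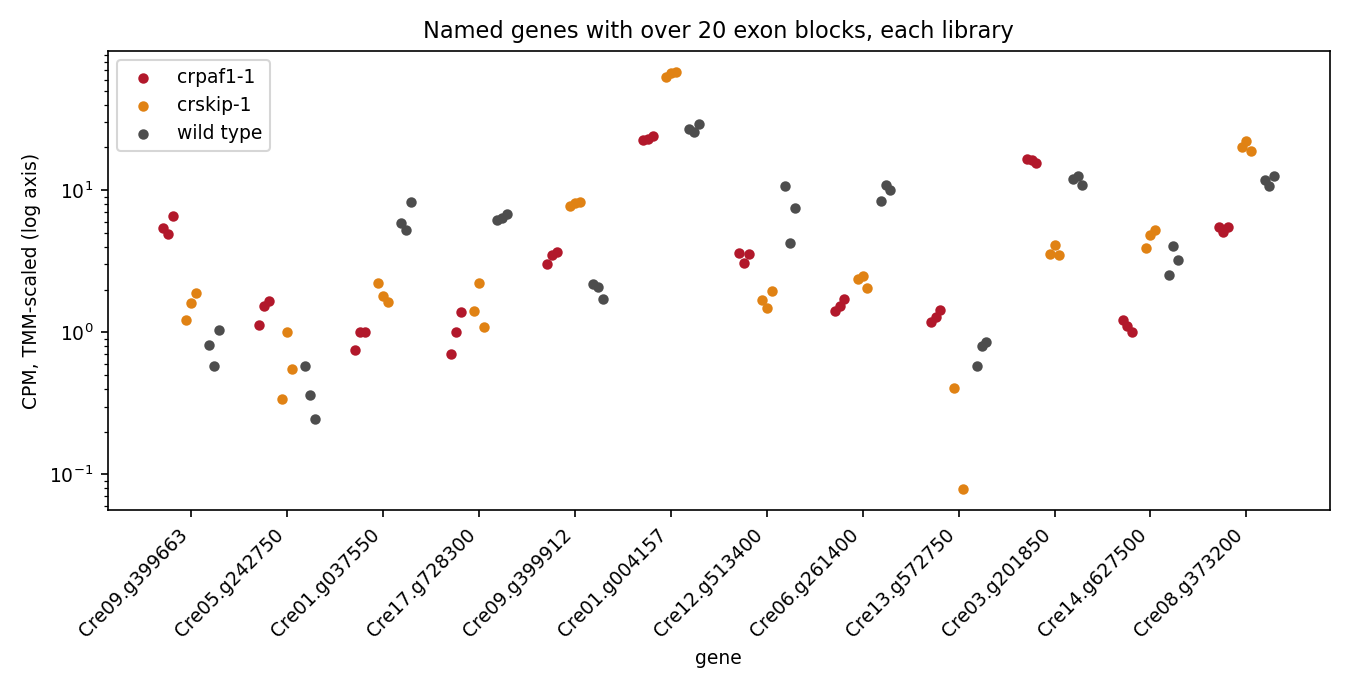
Level in CPM (log axis) of the 12 genes described above in each library, with crpaf1-1 in red, crskip-1 in orange and wild type in grey. 1 point is 1 library; the library with 0 reads of Cre13.g572750_4532.v6.1, in crskip-1, has no point. Cre08.g373200_4532.v6.1 and Cre03.g201850_4532.v6.1 show wild type between the mutants, in opposite orders.

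Library by library, the median log2 level of the 961 genes, relative to the mean of all 9 libraries, was -0.08, -0.05 and -0.03 in crpaf1-1, -0.02, -0.02 and 0.00 in crskip-1, and 0.02, 0.06 and 0.10 in wild type. All libraries of both mutants lay below those of wild type. In the comparison genes the medians were -0.02, -0.01 and 0.01 in crpaf1-1, -0.05, -0.05 and -0.02 in crskip-1, and 0.02, 0.04 and 0.07 in wild type. The difference between the sets was -0.07, -0.04 and -0.04 in crpaf1-1, 0.03, 0.03 and 0.03 in crskip-1, and 0.00, 0.02 and 0.03 in wild type. So the genes with over 20 blocks lay below their comparison genes in the 3 crpaf1-1 libraries and in none of the others, and crskip-1 overlapped wild type. These differences amount to hundredths of a log2 unit. Replicate 1, sequenced in lane 3, had the lowest median of the 961 genes in each group. The part of the lane in this was not tested. Within lane 2 alone, the median over the 990 genes was -0.11 in crpaf1-1 over wild type, -0.09 in crskip-1 over wild type and -0.04 in crpaf1-1 over crskip-1, and over all genes tested it was 0.01, -0.01 and -0.00 in the same order. The difference from the comparison genes in lane 2 alone was -0.07 in crpaf1-1 over wild type, 0.01 in crskip-1 over wild type and -0.07 in crpaf1-1 over crskip-1.

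**Figure D3:**
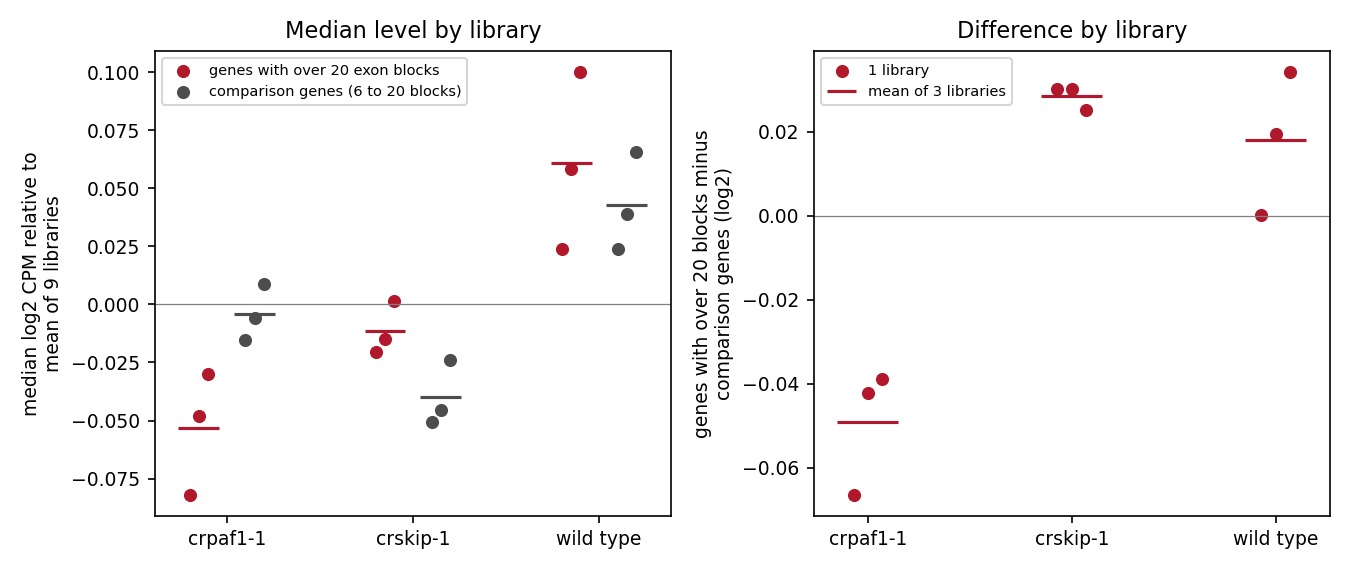
Left, median log2 CPM relative to the mean of the 9 libraries for 961 genes with over 20 exon blocks (red) and their comparison genes (grey); right, the first minus the second. 1 point is 1 library, and lines are means of 3 libraries. In the right panel the crpaf1-1 libraries lie between -0.07 and -0.04, below those of crskip-1 and wild type, which overlap.

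Block number was then followed within and beyond the genes chosen. At the threshold itself, 138 tested genes had exactly 21 blocks and 137 had exactly 20. In crpaf1-1, 43.5% of those with 21 blocks fell and 26.8% rose, with a median log2 fold change over wild type of -0.09, and of those with 20 blocks 39.4% fell and 19.7% rose, with a median of -0.07. In crskip-1, 28.3% fell and 19.6% rose at 21 blocks, and 28.5% fell and 18.98% rose at 20 blocks. Over all nuclear genes tested, the share that fell in crpaf1-1 was 18.5% of genes with 1 block, 26.2% with 2 to 5, 29.7% with 6 to 10 and 32.8% with 11 to 20, and then 41.8% with 21 to 25, 40.7% with 26 to 30, 41.1% with 31 to 40 and 48.0% with 41 or more. In crskip-1 these shares were 21.6%, 26.1%, 22.8% and 24.5% up to 20 blocks, and 28.1%, 37.4% and 34.3% from 21 to 40 and, with 41 or more, 49 of 98 genes. Length and level were not held equal between these classes.

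The 98 tested genes with 41 or more blocks stood at the far end. In crpaf1-1, 47 of them fell (48.0%, background 29.8%) and 20 rose (20.4%, background 28.6%) relative to wild type, and 24 fell by 2-fold or more (24.5%, background 6.30%), with a median log2 fold change of -0.15. In crskip-1, 49 of the 98 fell (background 25.1%), 10 of them by 2-fold or more (10.2%, background 5.06%), and 13 rose (13.3%, background 24.4%), with a median of -0.23. Their median level relative to the mean of 9 libraries was -0.13, -0.09 and -0.09 on the log2 scale in crpaf1-1, -0.09, -0.06 and -0.10 in crskip-1, and 0.08, 0.13 and 0.18 in wild type. No library of a mutant reached a wild-type library. Directly compared, 38 of the 98 were lower in crpaf1-1 than in crskip-1 (38.8%, background 28.2%) and 23 were higher (23.5%, background 25.7%). Within the 990 genes block number itself followed the fold changes weakly, with Spearman's rho of -0.04 in crpaf1-1 and -0.11 in crskip-1 over wild type (across 990 genes, which share libraries and are not independent).

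**Figure D4:**
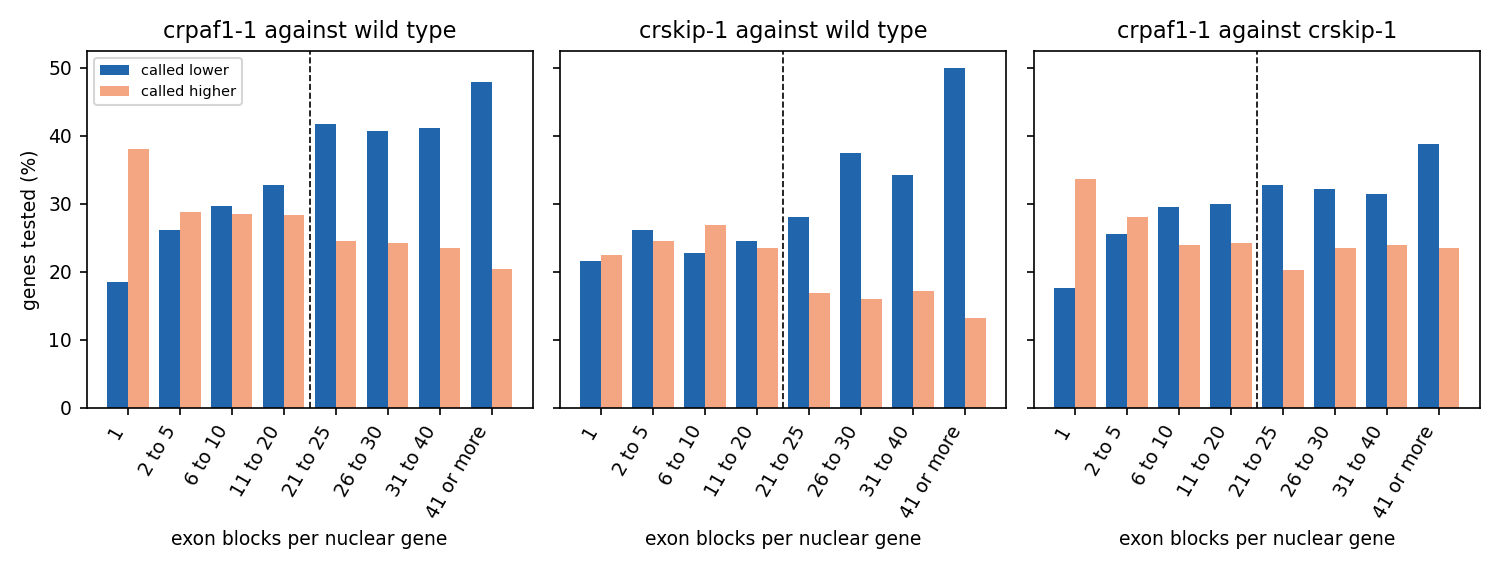
Share of nuclear genes tested (%, vertical axis) that passed the test at an adjusted p under 0.05 and were lower (blue) or higher (orange) in the first group of each comparison, by number of exon blocks (horizontal axis). The dashed line marks the threshold between 20 and 21 blocks. For 41 or more blocks the genes that fell number 47 of 98 in crpaf1-1 and 49 of 98 in crskip-1, and for 1 block their shares are 18.5% and 21.6%.

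The 2 genes with the most blocks were not lower in either mutant. Cre05.g245351_4532.v6.1, with 199 blocks over 58628 bases of chromosome 5 (653757 to 712384, plus strand), had 65.7, 71.9 and 74.8 CPM in the crpaf1-1 libraries, 77.3, 84.7 and 89.3 CPM in the crskip-1 libraries, and 64.9, 61.4 and 61.0 CPM in wild type. Both mutants lay above wild type in every library. The log2 fold change over wild type was 0.42 in crskip-1 (SE 0.06, adjusted p 3.2e-05, edgeR) and 0.18 in crpaf1-1 (SE 0.06, adjusted p 0.022, edgeR). The call in crpaf1-1 was lost without crpaf1-1 replicate 2 or 3 or wild-type replicate 2 or 3, with adjusted p between 0.070 and 0.11. Cre10.g451600_4532.v6.1, with 165 blocks on the plus strand of chromosome 10 (4569815 to 4631995), had 37.3, 39.5 and 38.9 CPM in the crpaf1-1 libraries, 47.3, 49.7 and 46.2 CPM in the crskip-1 libraries, and 36.4, 33.8 and 34.7 CPM in wild type. It rose in crskip-1, by 0.45 on the log2 scale (SE 0.06, adjusted p 1e-05, edgeR). In crpaf1-1 its log2 fold change was 0.14 (SE 0.06, adjusted p 0.059, edgeR), although no crpaf1-1 library overlapped the wild-type libraries.

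Of the 3 genes next in block number, Cre01.g002787_4532.v6.1 (146 blocks, plus strand of chromosome 1, 440513 to 484459) had 24.2, 26.6 and 26.3 CPM in the crpaf1-1 libraries, 22.2, 27.95 and 24.9 CPM in the crskip-1 libraries, and 24.7, 28.1 and 27.1 CPM in wild type. All groups overlapped, and neither difference from wild type passed the test (adjusted p 0.63 in crpaf1-1 and 0.42 in crskip-1, edgeR). Cre16.g682550_4532.v6.1 (102 blocks, plus strand of chromosome 16, 5440577 to 5484380) had 14.7, 16.7 and 15.6 CPM in the crpaf1-1 libraries, 15.5, 16.8 and 17.9 CPM in the crskip-1 libraries, and 20.4, 20.97 and 23.3 CPM in wild type. It fell in both mutants, by 0.46 in crpaf1-1 (adjusted p 0.00011) and by 0.36 in crskip-1 (adjusted p 0.0017) on the log2 scale (edgeR), and it overlaps 1 gene on the opposite strand. Cre10.g458350_4532.v6.1 (98 blocks, plus strand of chromosome 10, 5570628 to 5604979) had 40.7, 38.2 and 37.4 CPM in the crpaf1-1 libraries, 23.4, 22.1 and 21.8 CPM in the crskip-1 libraries, and 23.7, 24.01 and 21.2 CPM in wild type. It rose in crpaf1-1 by 0.76 on the log2 scale (SE 0.07, adjusted p 5.7e-08, edgeR), and its crskip-1 and wild-type libraries overlapped. Among the 10 genes with the most blocks (68 or more), 6 fell and 2 rose in crpaf1-1 (backgrounds 29.8% and 28.6%), and 6 fell and 2 rose in crskip-1 (backgrounds 25.1% and 24.4%). The gene with the greatest exon length, Cre10.g449750_4532.v6.1, with 72804 bases in 59 blocks, had 18.7, 15.5 and 15.5 CPM in the crpaf1-1 libraries, 15.1, 14.2 and 16.1 CPM in the crskip-1 libraries, and 19.6, 16.4 and 19.1 CPM in wild type. Its log2 fold change over wild type was -0.29 in crskip-1 (SE 0.10, adjusted p 0.022, edgeR) and -0.15 in crpaf1-1 (SE 0.09, adjusted p 0.18, edgeR). It was chosen after its values were seen.

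Intron length separated the 990 genes more than block number did. They were divided into 4 groups by the median length of their own introns, a division made after the data were seen. In the 248 genes with the shortest introns (64 to 182.5 bases), 56.9% fell in crpaf1-1 relative to wild type (background 29.8%). In this group 15.7% rose (background 28.6%) and 21.8% fell by 2-fold or more (background 6.30%). In the 245 genes with the longest introns (293.5 to 499.5 bases), 31.8% fell, 34.3% rose and 2.86% fell by 2-fold or more. The median log2 fold change of crpaf1-1 over wild type was -0.31, -0.14, -0.06 and 0.04 in the 4 groups in order of increasing intron length. In crskip-1 the medians over wild type were -0.22, -0.13, -0.04 and 0.03. The share that fell there was 49.2% in the first group and 19.2% in the last (background 25.1%). Between crpaf1-1 and crskip-1 the medians were -0.17, -0.05, -0.03 and 0.01.

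The comparison genes, placed in the same classes by their own introns, ran in the same order. The classes held 248, 249, 248 and 245 of the 990 genes, and 310, 283, 208 and 160 comparison genes. A gene and its comparison gene could thus fall in different classes, so exon length and level were not held equal within a class. Their medians were -0.16, -0.05, 0.05 and 0.09 in crpaf1-1 over wild type, and -0.15, -0.09, -0.05 and -0.04 in crskip-1 over wild type. In crpaf1-1 the medians of the genes with over 20 blocks lay below those of the comparison genes in each of the 4 classes. In crskip-1 they lay below in the classes of shorter introns and above in the classes of longer introns. Spearman's rho between median intron length and fold change over wild type was 0.24 in crpaf1-1 and 0.23 in crskip-1 across the 990 genes, and 0.25 and 0.14 across the 961 comparison genes. These are descriptions across genes that share libraries.

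By library, the median of the genes with the shortest introns minus that of the genes with the longest was -0.17, -0.16 and -0.18 on the log2 scale in crpaf1-1, -0.02, 0.02 and -0.12 in crskip-1, and 0.24, 0.16 and 0.13 in wild type. The 3 groups of libraries did not overlap, with wild type highest and crpaf1-1 lowest. In lane 2 alone the difference between the first and the last class was -0.32 in crpaf1-1 and -0.21 in crskip-1 over wild type, against -0.35 and -0.24 in all libraries. Genes with short introns were also longer in exon (Spearman's rho of median intron with exon length -0.32 across 990 genes), and intron length hardly followed level (rho 0.06).

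**Figure D5:**
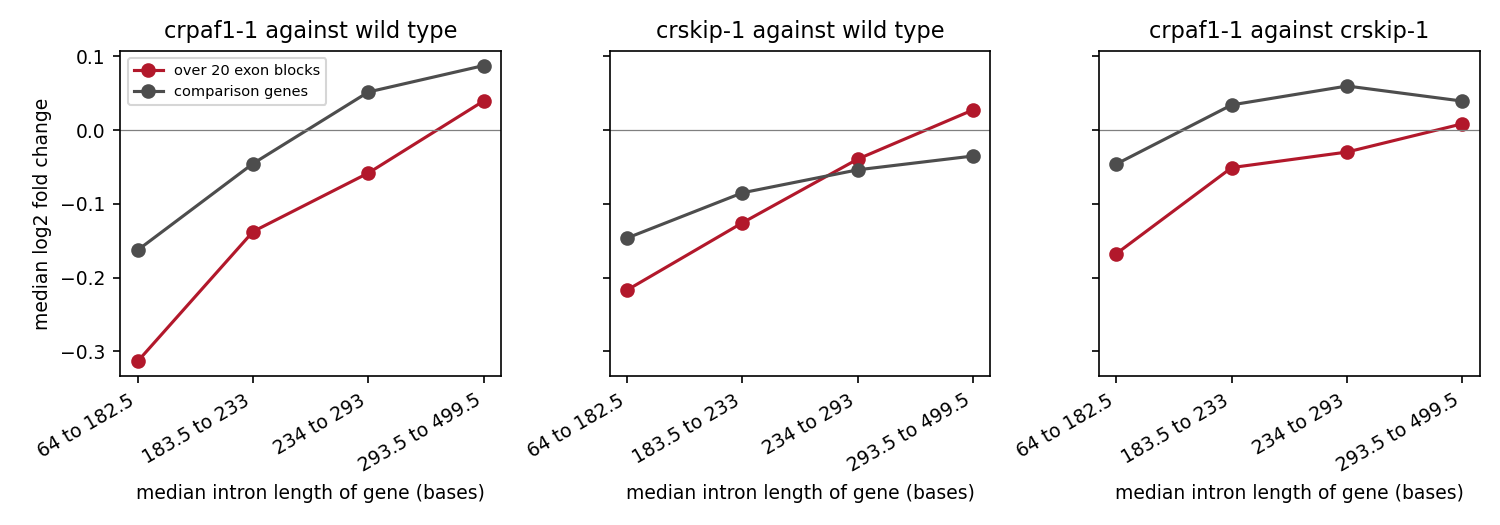
Median log2 fold change (vertical axis) of genes with over 20 exon blocks (red) and of their comparison genes (grey) in 4 classes of median intron length (bases, horizontal axis; the bounds are those of the genes with over 20 blocks), in 3 comparisons. Red runs from -0.31 to 0.04 in crpaf1-1 against wild type and from -0.22 to 0.03 in crskip-1 against wild type as introns lengthen.

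Level moved with the fold changes as well. The level used is a mean that includes the mutant libraries. A gene that fell in a mutant was thus moved toward a lower class by its own fall. The order of the classes, and the split by level below, are in part built in by this. In 4 groups by mean level over all libraries, the median log2 fold change over wild type was -0.35, -0.15, -0.03 and 0.02 in crpaf1-1 and -0.22, -0.12, -0.03 and 0.04 in crskip-1, from the lowest level (up to 11.9 CPM) to the highest (53.5 CPM and more). In the comparison genes the same classes had -0.10, -0.07, 0.02 and -0.01 in crpaf1-1 and -0.24, -0.08, -0.08 and 0.01 in crskip-1. The genes were therefore also split at the medians of both measures, 25.8 CPM and 233 bases. In crpaf1-1 (background 29.8%), of the genes with shorter introns, 53.0% fell at lower level and 46.3% at higher level. Of those with longer introns, 45.4% fell at lower level and 24.4% at higher level. The comparison genes, classed by their own level and introns and so not matched within a class, had 46.5%, 39.4%, 26.1% and 20.5% in the same order. In crskip-1 (background 25.1%) the shares were 44.8% and 41.9% with shorter introns, and 31.3% and 17.3% with longer introns. The comparison genes had 42.9%, 35.3%, 24.2% and 27.3% there. The share that fell was therefore higher with shorter introns at either level. The part of level in the comparison of the groups was not tested beyond this split and the choice of comparison genes.

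Exon length and the share of intron in the span also ordered the genes. In the longest of 4 classes of exon length (8839 bases and more) 44.8% of the genes fell in crpaf1-1 relative to wild type (background 29.8%). There 20.2% fell by 2-fold or more (background 6.30%), and in the shortest class the shares were 38.6% and 7.23%. The comparison genes had 32.5% and 8.63% in the longest class and 31.9% and 7.09% in the shortest. The longest class held 248 genes of up to 72804 bases, with the 29 that have no comparison gene among them. On the other side it held 197 comparison genes of up to 24126 bases, so exon length was not held equal in it. In crskip-1 (background 25.1%) 44.0% fell in the longest class and 24.5% in the shortest, and of the comparison genes 45.7% and 24.4%. In that longest class the medians of crpaf1-1 over crskip-1 were -0.05 in the genes with over 20 blocks and 0.12 in the comparison genes, which is where the sets differed most in that comparison by length. Genes whose span was least intron (12.0% to 41.03%) had medians over wild type of -0.19 in crpaf1-1 and -0.17 in crskip-1, and those whose span was most intron (60.4% to 85.4%) had 0.04 and 0.05. Number of blocks per kb, which is high where exons are short, did not order the medians evenly. From the least to the most dense class they were -0.09, -0.18, -0.09 and -0.02 in crpaf1-1, and -0.12, -0.15, -0.07 and 0.03 in crskip-1. In the densest class (5.50 to 9.73 blocks per kb) 36.3% fell in crpaf1-1 (background 29.8%) and 25.8% in crskip-1 (background 25.1%). Cre04.g800501_4532.v6.1, second in density with 31 blocks in 3192 bases of exon (minus strand of chromosome 4, 3891930 to 3905982), had 28.7 to 31.7 CPM in the crpaf1-1 libraries, 48.6, 45.1 and 42.3 CPM in the crskip-1 libraries, and 39.4, 44.3 and 44.3 CPM in wild type. It fell in crpaf1-1 by 0.48 on the log2 scale (SE 0.07, adjusted p 1.7e-05, edgeR), while its crskip-1 libraries overlapped those of wild type.

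Of the 3 most abundant of these genes, 1 fell by more than 2-fold in crpaf1-1. Cre12.g537200_4532.v6.1, with 22 blocks on the minus strand of chromosome 12 (6369497 to 6381427), had 922, 1018 and 999.3 CPM in the crpaf1-1 libraries, 1246, 1169 and 1222 CPM in the crskip-1 libraries, and 989, 1055 and 1025 CPM in wild type. Only the crskip-1 libraries stood apart, at a log2 fold change over wild type of 0.25 (SE 0.05, adjusted p 0.00025, edgeR). Cre01.g016050_4532.v6.1, with 37 blocks on the plus strand of chromosome 1 (2651980 to 2668371), averaged 995 ± 52.4 CPM in the crpaf1-1 libraries, 1083 ± 44.4 CPM in the crskip-1 libraries and 971 ± 46.0 CPM in wild type (SD, n = 3 each). Its log2 fold change of 0.16 in crskip-1 over wild type (SE 0.05, adjusted p 0.013, edgeR) did not pass without crskip-1 replicate 2 (adjusted p 0.053) or wild-type replicate 1 (adjusted p 0.081), nor when scaled by library size alone (adjusted p 0.51). Cre07.g321400_4532.v6.1, with 23 blocks on the minus strand of chromosome 7 (1200636 to 1211909), had 459, 443 and 489 CPM in the crpaf1-1 libraries, 992, 1014 and 995 CPM in the crskip-1 libraries, and 1406, 1158 and 1282 CPM in wild type. The groups did not overlap. It fell by 1.47 on the log2 scale in crpaf1-1 (SE 0.06, adjusted p 2.5e-12, edgeR) and by 0.36 in crskip-1 (SE 0.06, adjusted p 5.6e-05, edgeR), and it overlaps 1 gene on the opposite strand.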

How the data were processed

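Messenger RNA was measured in 9 libraries, 3 per group. For each library the authors deposited raw counts, whole numbers per gene that were not normalized, with each gene's exon intervals, strand and exon length. Bowtie2 and featureCounts are named in the submitters' processing notes, with no version, setting or use of strand in any source used here. Counting was on uniquely mapped reads after removal of duplicates, per the file headers, which lowers the counts of abundant genes more than those of others. If reads were placed without splitting them across introns, reads over exon junctions were lost in every library, and genes with short blocks are then measured low; the effect on fold changes was not tested. The only statement of the genome build is the suffix of the gene IDs.

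Exon intervals were merged per gene, and the merged length equalled the deposited length for all 14621 genes. Counts were tested in edgeR 4.0.16 (R 4.3.3) with TMM scaling, filterByExpr, glmQLFit and glmQLFTest on all 9 libraries, with Benjamini-Hochberg adjustment over 13376 genes and a threshold of 0.05. Comparison genes were the nearest in standardised log2 exon length and mean log2 CPM, within 0.25 SD, each used once. The procedure was tested on simulated counts in which far fewer genes changed than here. Scaling where most genes change was not tested by it. DESeq2 1.42.0, other scalings, no filter, lane 2 alone, a replicate block and leaving out each library were the alternatives. Deviations of same-numbered libraries correlated between -0.05 and 0.26. The values were 0.26, 0.18 and 0.12 for replicate 1, which is the lane 3 set. They were 0.03, 0.06 and -0.02 for replicate 2, and -0.05, 0.13 and 0.08 for replicate 3. Replicate numbers were not taken to pair libraries, and the main test held no term for lane. No replicates were duplicates of one another: chi-square per degree of freedom was 2.42 to 4.17 between libraries of a group. With 3 libraries per group a single value could reach no exact p under 0.10, and no p is given for medians over genes.

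Genes were named by a fixed rule: for each comparison, the 6 highest and 6 lowest fold changes among genes that passed the test, whose groups did not overlap and whose mean was 1 CPM or more in the higher group, of which the first 2 each way are given in full; the 5 genes with the most blocks; the 5 with the highest level, of which 3 are given; and the 2 with the most blocks per kb. The genes and lists were chosen with earlier results of these data known, and the classes of intron length and of level were chosen after the data were seen. The deposited tables pair no ID with a name. In the table used for names, of assembly Chlamydomonas_reinhardtii_v5.5, 991 of the 1022 IDs matched a locus tag and 0 of these had a symbol of their own, so no classes by gene product were formed and no sequences are shown.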

Additional observations from a re-analysis of the deposited data

Results flagged for a closer look

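A difference between the mutants passed the direct test for 544 of the 990 genes with over 20 exon blocks, at a background of 53.8% of all genes tested. Among the genes named, Cre13.g572750_4532.v6.1 had a log2 fold change of crpaf1-1 over crskip-1 of 2.92, which rests on 7 reads in the 3 crskip-1 libraries together. Cre03.g201850_4532.v6.1 had 2.10, Cre14.g627500_4532.v6.1, which overlaps a gene on the opposite strand, had -2.05, and Cre08.g373200_4532.v6.1 had -1.93. For Cre03.g201850_4532.v6.1 and Cre08.g373200_4532.v6.1 the mutants lay on opposite sides of wild type, in every library.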

How the results depend on the processing

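Medians relative to all genes kept their sign under every alternative run. With library size alone the median log2 fold changes over wild type were -0.017 in crpaf1-1 and -0.20 in crskip-1, with 65 rises in crskip-1. Between the mutants the median was 0.15, with 431 genes higher and 155 lower in crpaf1-1. These counts are out of 990 genes. With that scaling all genes tested had medians of -0.12 in crskip-1 over wild type and 0.20 between the mutants. Of all 13376 genes, 6742 and 8249 passed the test in these comparisons. Counts follow the number of genes taken. The backgrounds for rises and falls are 28.6% and 29.8% in crpaf1-1, 24.4% and 25.1% in crskip-1, and 25.7% and 28.2% between the mutants. Of 1980 genes with 16 or more blocks, 1246 changed in crpaf1-1 (479 up, 24.2%, and 767 down, 38.7%). In crskip-1 968 changed (363 up, 18.3%, and 605 down, 30.6%). Between the mutants 1064 differed (433 higher, 21.9%, and 631 lower, 31.9%, in crpaf1-1). Differences from comparison genes were -0.0084 in crskip-1 and -0.071 between the mutants. Of 273 genes with 31 or more blocks, 180 changed in crpaf1-1 (61 up, 22.3%, and 119 down, 43.6%). In crskip-1 152 changed (43 up, 15.8%, and 109 down, 39.9%). Between the mutants 158 differed (65 higher, 23.8%, and 93 lower, 34.1%). In this set medians were -0.12 in crskip-1 and -0.087 between the mutants, or -0.13 and -0.083 relative to all genes. Its differences from comparison genes were -0.098 in crpaf1-1, -0.026 in crskip-1 and -0.15 between the mutants. Without genes that overlap another on the opposite strand, 642 genes were left. Of these, 419 changed in crpaf1-1 (258 down, 40.2%), 324 in crskip-1 (216 down, 33.6%) and 350 between the mutants (202 lower, 31.5%). Their differences from comparison genes were -0.055 in crpaf1-1 and -0.064 between the mutants. Comparison genes chosen on span, found for 685 genes and not matched on exon length, gave -0.14, -0.047 and -0.11. Those with 11 to 20 blocks gave -0.011 in crskip-1 and -0.041 between the mutants. Those chosen on the mutant libraries gave -0.024 and -0.070 in the same 2 comparisons. Lane 2 alone gave -0.070 between the mutants. Leaving out each library in turn, the difference from comparison genes ran from -1.2e-05 to 0.024 in crskip-1 and from -0.095 to -0.074 between the mutants. The cause was not tested. A replicate block gave 672, 536 and 583 genes that changed, against 652, 495 and 544. Over all 13376 genes it gave 8176, 7004 and 7579, against 7806, 6618 and 7202. Of single genes none of which had passed, the sign turned with library size alone for Cre01.g002787_4532.v6.1 (0.033) and Cre12.g537200_4532.v6.1 (0.021) in crpaf1-1 and Cre04.g800501_4532.v6.1 in crskip-1 (-0.032, and -0.024 in lane 2), and within the ranges on leaving out a library for Cre10.g458350_4532.v6.1 in crskip-1 (-0.096 to 0.00087) and Cre01.g016050_4532.v6.1 in crpaf1-1 (-0.0068 to 0.075).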
